A study of Mus musculus with 6 samples.

Results

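The genes of the CD3 complex and the T cell receptor, with 4 further genes best known from T cells, were examined in immature NK cells of mice with intact Myc alleles or with Myc alleles targeted for deletion in NK cells. The 10 genes, out of 25690 gene symbols in the data, were given by name, with earlier results of these data known: Cd3d, Cd3e and Cd3g, the T cell receptor segments Trdv4, Trbc1 and Trbc2, and Cd5, Cd28, Lck and Cd8a. RNA-seq was performed on CD27SP NK cells of the bone marrow (BM) from mice on a C57BL/6 background that were matched for sex and age and were 6 to 14 weeks old. Both genotypes carried Cre in the Ncr1 locus, which is active in NK cells and in other cells that express NKp46. They differed at Myc, with 3 libraries labelled Ncr1cre Myc fl/fl, in which Myc is deleted from the immature NK cell stage on, and 3 labelled Ncr1cre Myc wt/wt, whose Myc alleles were not floxed. The sort took cells positive for NK1.1 and CD27 and negative for CD11b and CD3. The libraries carry the numbers 1, 2 and 4 in each genotype. The labels do not say whether each library came from 1 mouse or a pool, so p-values measure the spread between these samples, which may be partly technical.

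On T cells, the CD3 gamma, delta and epsilon chains pair with a CD3 zeta dimer and with the antigen-binding T cell receptor chains, and none of these chains reaches the cell surface in quantity without the others. Each receptor chain is built from V, J and, for the beta and delta chains, D segments that are joined in the DNA of developing T cells and spliced to a constant (C) segment. NK cells use other receptors, but they share CD3 zeta and the kinase Lck with T cells, and transcripts of CD3 genes and of unrearranged T cell receptor segments are known from NK cells and their precursors. Because surface CD3 was used to exclude cells from the sort, the values below are of RNA in cells that were negative for that protein in the gate.

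The 3 CD3 genes lie next to each other on mouse chromosome 9 within 40056 bases. Cd3g and Cd3d are read in opposite directions from starts that are 1355 bases apart, and Cd3e lies 11401 bases beyond Cd3d. The 300 bases around each start, from 250 before to 50 after it, are shown for these genes because ratios between them are compared below. The sequences are those of RefSeq (GRCm38.p6), at chr9:44980382-44980681 (minus strand) for Cd3g, chr9:44981536-44981835 (plus strand) for Cd3d and chr9:45009562-45009861 (minus strand) for Cd3e, and capitals mark the letters GGAAGT on either strand, the core bound by ETS family factors.
Cd3g: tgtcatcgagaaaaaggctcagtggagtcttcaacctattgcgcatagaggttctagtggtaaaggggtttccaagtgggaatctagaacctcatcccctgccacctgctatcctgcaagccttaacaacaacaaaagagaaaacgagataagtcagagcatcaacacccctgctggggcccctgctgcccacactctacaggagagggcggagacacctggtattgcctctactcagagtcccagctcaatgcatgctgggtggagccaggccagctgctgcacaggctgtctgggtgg
Cd3d: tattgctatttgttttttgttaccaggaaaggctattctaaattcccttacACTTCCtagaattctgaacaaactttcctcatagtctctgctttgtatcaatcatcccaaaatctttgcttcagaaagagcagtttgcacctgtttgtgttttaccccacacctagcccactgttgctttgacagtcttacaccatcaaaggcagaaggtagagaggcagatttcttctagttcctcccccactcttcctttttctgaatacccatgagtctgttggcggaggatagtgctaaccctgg
Cd3e: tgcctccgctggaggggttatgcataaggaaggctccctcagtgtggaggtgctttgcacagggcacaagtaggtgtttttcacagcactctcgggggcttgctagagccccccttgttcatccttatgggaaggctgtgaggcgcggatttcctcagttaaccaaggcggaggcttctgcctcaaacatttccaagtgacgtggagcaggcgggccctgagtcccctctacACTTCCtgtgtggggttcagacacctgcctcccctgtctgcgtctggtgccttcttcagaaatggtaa
Cd3d and Cd3e held these letters once each, and Cd3g did not hold them. Of the 7 windows listed for 6 of the 10 genes, 5 held them (also Cd5 and both starts of Lck), against 23.8% of 32851 promoter windows of this length. CACGTG, the E-box that MYC with its partner MAX is known to bind, was in none of the 7 windows, against 7.15% of all windows. TGTGGT, a core bound by RUNX factors, was found once, in the window of the distal start of Lck, against 16.8% of all windows. These are matches of letters in a fixed window and do not show where a factor binds.

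Trdv4, a V segment of the delta chain locus on chromosome 14 (GRCm38), was the gene of the 10 that passed the test between genotypes. Its second coding exon, which encodes most of the variable domain, spans chr14:54075217-54075515 on the plus strand and is shown here because this stretch carries most of the transcript that was counted.
Trdv4: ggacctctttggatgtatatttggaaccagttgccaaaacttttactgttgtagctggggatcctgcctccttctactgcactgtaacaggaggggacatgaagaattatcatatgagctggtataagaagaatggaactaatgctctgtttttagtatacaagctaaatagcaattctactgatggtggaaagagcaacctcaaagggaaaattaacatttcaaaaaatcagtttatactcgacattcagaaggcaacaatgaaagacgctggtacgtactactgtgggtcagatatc
No stretch of 100 bases, the length of the reads, was shared between Trdv4 and another transcript in the files. Trdv4 lies within the gene Gm30275, which is annotated on the opposite strand, but no exon of that gene overlaps it.

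Trbc1 and Trbc2, the 2 constant segments of the beta chain on chromosome 6, lie 6849 bases apart and have nearly the same sequence. Their first coding exons differed at 1 of 375 bases (C260A from Trbc1 to Trbc2, counted from 1 at the 5' end of that exon). The 90 bases around this position are shown, at chr6:41538432-41538521 for Trbc1 and chr6:41546944-41547033 for Trbc2 (GRCm38, both on the plus strand), with the differing base in capitals, because reads from this exon carry little to tell the genes apart.
Trbc1: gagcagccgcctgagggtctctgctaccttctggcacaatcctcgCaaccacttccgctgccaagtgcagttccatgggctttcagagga
Trbc2: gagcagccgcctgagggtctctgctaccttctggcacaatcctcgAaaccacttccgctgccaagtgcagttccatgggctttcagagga
Over all 518 coding bases 95.6% were identical. Of the stretches of 100 bases in their transcripts, 28.2% of those of Trbc1 and 30.9% of those of Trbc2 occurred in both genes, so reads within them were divided between the genes by estimation. Of the other 8 genes, none shared such a stretch with another gene.

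Between 8101219 and 64962491 estimated counts were obtained per library, and the lowest total by far was that of wt/wt replicate 1, since the other 5 libraries held at least 54550907. CPM below are TMM-normalised counts relative to the depth of the library, and TMM scales libraries to a common composition. Myc was at 200.5, 183.4 and 164.3 CPM in wt/wt replicates 1, 2 and 4 and at 61.5, 64.6 and 76.5 CPM in the fl/fl libraries, in the same order of replicates, which is used throughout. It was lower in every fl/fl library (log2 fold change -1.44, SE 0.15, adjusted p = 0.00189 by edgeR's quasi-likelihood test). NK cell identity was visible in both genotypes, with Ncr1 between 722.7 and 1016 CPM in all libraries and 0 of 10 NK cell markers past the test.

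Of the 10 genes, 1 (Trdv4) was called higher in fl/fl and 0 were called lower by edgeR's quasi-likelihood test with an adjusted p below 0.01 and a log2 fold change of at least 0.5 in size. Among all 15474 genes tested, 1.28% were called higher and 0.872% lower, which is 2.15% in either direction. At an unadjusted p below 0.05, 4 of the 10 were higher and 1 was lower, beside 12.4% and 10.2% of all tested genes. The median log2 fold change of the 10 genes was 0.25, beside 0.01 over all tested genes. The libraries of the genotypes did not overlap for 2 of the 10 genes, Trdv4 and Cd3d, beside 31.3% of all tested genes (16.2% higher and 15.1% lower in fl/fl). In bulk samples such as these, fewer cells that express a gene and less of its RNA per cell cannot be told apart.

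**Figure D1:**
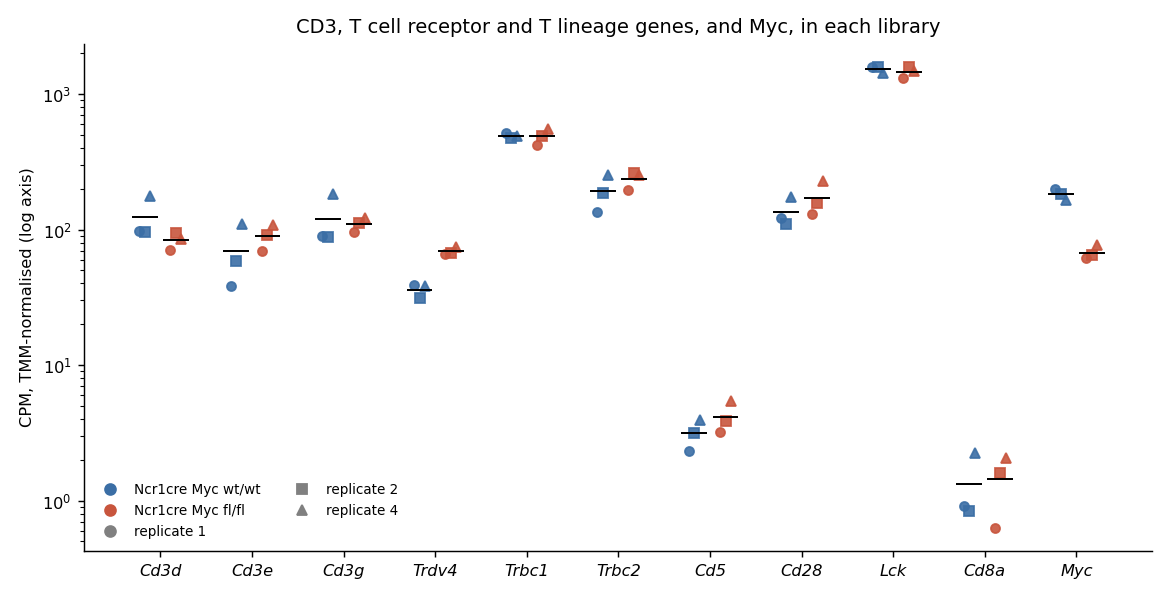
TMM-normalised CPM (log axis) of the 10 genes and of Myc in each library, with Myc wt/wt in blue, Myc fl/fl in red, a symbol per replicate number and the mean of 3 libraries as a black line. The genotypes are apart for Trdv4 (higher in fl/fl), Cd3d and Myc (lower in fl/fl) and overlap for the other 8 genes.

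Cd3d, which encodes the delta chain of CD3, was at 97.4, 95.5 and 177.7 CPM in the wt/wt libraries and at 71.1, 93.7 and 85.5 CPM in the fl/fl libraries. The highest value was that of wt/wt replicate 4, and the lowest wt/wt value, 95.5, was close to the highest fl/fl value, 93.7, so the genotypes were only just apart. The log2 fold change was -0.51 (95% confidence interval -0.94 to -0.09), which did not pass the test (adjusted p = 0.138 by edgeR). Across the replicate numbers, the difference ranged from -0.03 to -1.06 on the log2 scale, and the fitted value was -0.26 without replicate 4. Cd3e, the epsilon chain, with which gamma and delta each form a dimer, was at 38.1, 58.6 and 110.2 CPM in wt/wt and at 69.0, 91.8 and 107.1 CPM in fl/fl. Its lowest values were those of wt/wt replicates 1 and 2, whereas wt/wt replicate 4 was above every fl/fl library. The log2 fold change of Cd3e was 0.48 (0.08 to 0.88, adjusted p = 0.146 by edgeR). In fits with no block it was 0.36 with all libraries and 0.07 (adjusted p = 0.914 by edgeR) without wt/wt replicate 1, and with the block it was 0.73 (adjusted p = 0.0486 by edgeR) without replicate 4 of both genotypes. An annotated antisense gene, Gm48719, overlaps an exon of Cd3e and is not among the genes of the deposited data. With a library kit that does not mark the strand, its reads there could be counted to Cd3e. Cd3g, the gamma chain, was at 89.6, 87.8 and 183.0 CPM in wt/wt and at 95.3, 111.2 and 121.5 CPM in fl/fl, with wt/wt replicate 4 again on top. Its genotypes overlapped (log2 fold change -0.05, -0.46 to 0.35, adjusted p = 0.911 by edgeR).

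Wt/wt replicate 4 held more of all 3 CD3 genes than the other wt/wt libraries, so ratios between the genes were taken within each library, which leaves a shift common to all 3 out. These ratios, and those given below for other loci, were chosen after the values were seen. Estimated counts of Cd3e were 0.391, 0.614 and 0.620 times those of Cd3d in the wt/wt libraries and 0.969, 0.979 and 1.25 times in the fl/fl libraries. The ratio was higher in every fl/fl library, by 1.00 on the log2 scale, and this was 0.84 to 1.16 when the libraries of 1 replicate number were left out. The ratio of Cd3g to Cd3d was 0.956 ± 0.0635 (SD, n = 3) in wt/wt and 1.32 ± 0.119 in fl/fl, again without overlap. The ratio of Cd3e to Cd3g did not overlap either, with 0.425, 0.668 and 0.602 in wt/wt and 0.723, 0.825 and 0.882 in fl/fl. Since the ratios were picked for their values, they are given with no test. For all pairs of tested genes that lie next to each other on a chromosome, the ratio did not overlap between genotypes in 30.0% of 15444 pairs. With TPM, which accounts for transcript length, in place of counts, the difference of the Cd3e to Cd3d ratio was 1.02 on the log2 scale.

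**Figure D2:**
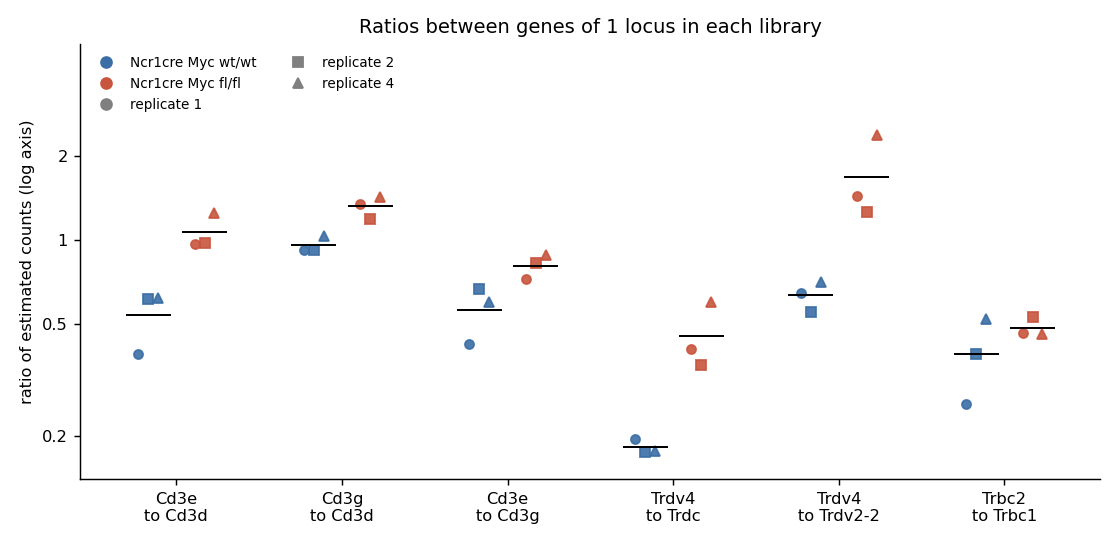
Ratio of estimated counts between genes of 1 locus (log axis) in each library, with Myc wt/wt in blue, Myc fl/fl in red, a symbol per replicate number and the mean of 3 libraries as a black line. The fl/fl libraries lie above the wt/wt libraries for the 3 ratios within the CD3 cluster and the 2 ratios of Trdv4, and overlap them for Trbc2 to Trbc1.

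Most counts of the 3 CD3 genes were assigned to their coding transcripts. The main coding transcript took 97.2% to 98.6% of the counts of Cd3d and 98.0% to 98.6% of those of Cd3g. For Cd3e the share was 69.3% in wt/wt replicate 1 and 78.0% to 84.5% in the other 5 libraries, and the rest was assigned to transcripts with retained introns. The shares of Cd3e transcripts overlapped between genotypes.

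Trdv4 was at 39.2, 31.1 and 38.0 CPM in the wt/wt libraries and at 66.2, 67.4 and 73.7 CPM in the fl/fl libraries. Every fl/fl library was above every wt/wt library, and both groups were tight (36.1 ± 4.40 and 69.1 ± 4.05 CPM, SD, n = 3). Trdv4 was 1.93-fold higher in fl/fl (log2 fold change 0.95, SE 0.14, 95% confidence interval 0.62 to 1.27, adjusted p = 0.00593 by edgeR), and it was higher in all 3 pairs of the same number. The call depended on small margins. The adjusted p by edgeR was 0.0168, 0.0231 and 0.0201 without replicate 1, 2 and 4 of both genotypes, which is below 0.05 but above the limit of 0.01, while the log2 fold change stayed between 0.87 and 1.04 in every alternative. Counts over a V segment do not show whether it was rearranged.

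The delta locus holds 1 constant and 5 V segments. Trdc, the constant segment of the delta chain, was at 201.2, 176.3 and 215.0 CPM in wt/wt and at 161.4, 188.7 and 122.5 CPM in fl/fl (log2 fold change -0.34, adjusted p = 0.291 by edgeR). Trdv2-2, the most abundant delta V segment in the wt/wt libraries, was at 60.9, 56.0 and 53.7 CPM in wt/wt and at 46.3, 53.6 and 31.3 CPM in fl/fl (-0.41, adjusted p = 0.174 by edgeR). Both thus had the opposite sign to Trdv4 without passing the test. The ratio of Trdv4 to Trdc was 0.195, 0.176 and 0.177 in the wt/wt libraries and 0.410, 0.357 and 0.602 in the fl/fl libraries. The ratio to Trdv2-2 was 0.645, 0.555 and 0.709 in wt/wt and 1.43, 1.26 and 2.36 in fl/fl, so that Trdv4 was the lesser of these 2 segments in every wt/wt library and the greater in every fl/fl library. These ratios too were picked after Trdv4 was seen to differ, and are a description with no test. The 3 other delta V segments, Trdv1, Trdv2-1 and Trdv5, were at 0.390 to 5.69 CPM in all libraries and were not called.

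Trbc1 was the most abundant T cell receptor segment, at 518.9, 473.5 and 487.1 CPM in wt/wt and 421.3, 493.0 and 546.9 CPM in fl/fl. The lowest and the highest value both came from fl/fl libraries, and the log2 fold change was -0.02 (-0.35 to 0.30, adjusted p = 0.953 by edgeR). Trbc2 was at 134.2, 185.2 and 254.1 CPM in wt/wt and at 196.4, 261.2 and 252.0 CPM in fl/fl, with the lowest value in wt/wt replicate 1 and with overlap between the genotypes. Its log2 fold change was 0.34 (0.00 to 0.68, adjusted p = 0.219 by edgeR). In fits with no block it was 0.30 with all libraries and 0.09 without wt/wt replicate 1. Since part of their reads cannot be assigned to 1 of these genes, their sum was taken as well. It was 653.1, 658.7 and 741.2 CPM in wt/wt and 617.7, 754.2 and 798.9 CPM in fl/fl, which overlapped. The ratio of Trbc2 to Trbc1 overlapped between genotypes too.

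The beta constant segments were abundant while beta V segments were not. Counts of all 22 beta V segments summed to 17.5 to 40.1 CPM in wt/wt and 30.2 to 55.6 CPM in fl/fl, far below the sum over Trbc1 and Trbc2 in every library. All J and D segments of the 4 loci were listed at 0 in every library, but at 9 to 66 bases they are shorter than the reads of 100 bases, so these zeros do not show that the segments were not transcribed. Trac, the constant segment of the alpha chain, was at 27.2, 18.9 and 35.6 CPM in wt/wt and 36.3, 40.5 and 41.6 CPM in fl/fl, higher in every fl/fl library but not called (log2 fold change 0.58, adjusted p = 0.105 by edgeR). Tcrg-C4, the most abundant gamma constant segment, was at 50.5, 58.0 and 98.2 CPM in wt/wt and at 87.2, 96.6 and 115.8 CPM in fl/fl (0.58, adjusted p = 0.0474 by edgeR), and the genotypes overlapped through wt/wt replicate 4. Of all 226 annotated receptor segments, 77 could be tested, and 1 of these, Trdv4, was called, beside 2.15% of all tested genes in either direction.

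**Figure D3:**
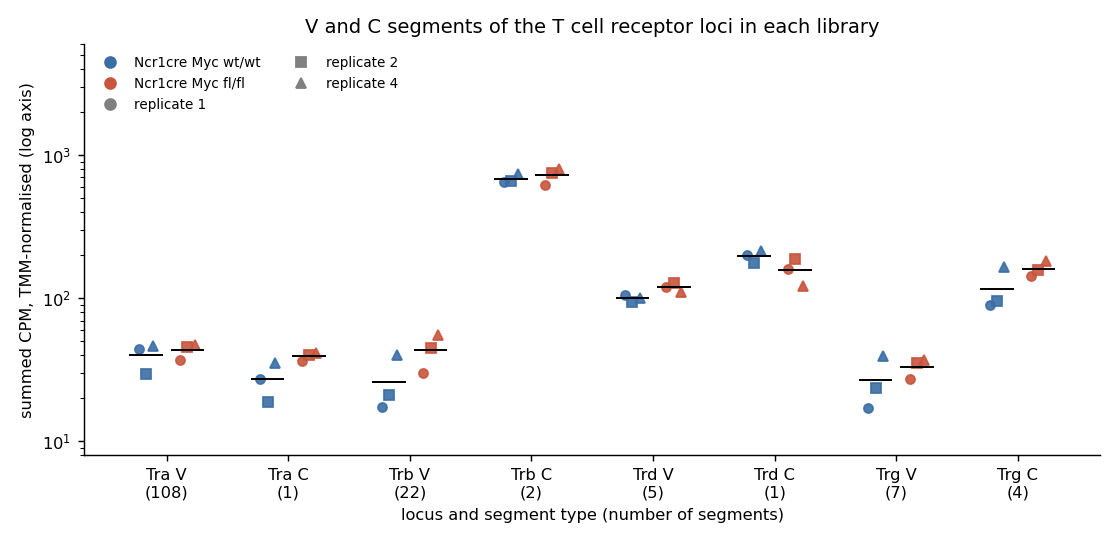
Summed TMM-normalised CPM (log axis) over the V and the C segments of the alpha (Tra), beta (Trb), delta (Trd) and gamma (Trg) loci in each library, with the number of segments in brackets, Myc wt/wt in blue, Myc fl/fl in red and the mean of 3 libraries as a black line. The beta C segments stand highest, at 617.7 to 798.9 CPM, and the genotypes are apart for the alpha C segment and the delta V segments, both higher in fl/fl. Without Trdv4, the other 4 delta V segments sum to 62.0 to 67.0 CPM in wt/wt and 37.5 to 60.5 CPM in fl/fl, lower in every fl/fl library.

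Lck, the kinase that phosphorylates CD3 chains in T cells and is also used by NK cell receptors, was the gene of the 10 with the most counts. It was at 1570.2, 1569 and 1421 CPM in wt/wt and at 1311, 1579.8 and 1472 CPM in fl/fl. The genotypes overlapped (log2 fold change -0.07, -0.38 to 0.24, adjusted p = 0.842 by edgeR). Lck is transcribed from a distal and a proximal start, whose most upstream sites were 15250 bases apart in the annotation. The distal transcript took 71.5%, 84.6% and 84.9% of the counts of coding Lck transcripts in wt/wt and 79.1%, 79.9% and 71.9% in fl/fl, so the distal start dominated in all libraries and the genotypes overlapped. Among the transcripts of the proximal start, ENSMUST00000067240 was estimated at 7.00%, 8.83% and 7.80% of all Lck counts in wt/wt and at 14.8%, 12.7% and 20.4% in fl/fl. This share was higher in every fl/fl library. Such a lack of overlap was found for 12.1% of 29741 transcripts, and the share is an estimate from reads that can match several transcripts. A second proximal transcript, ENSMUST00000167288, was at 20.9% in wt/wt replicate 1 and at 5.83% to 7.31% in the other 5 libraries.

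**Figure D4:**
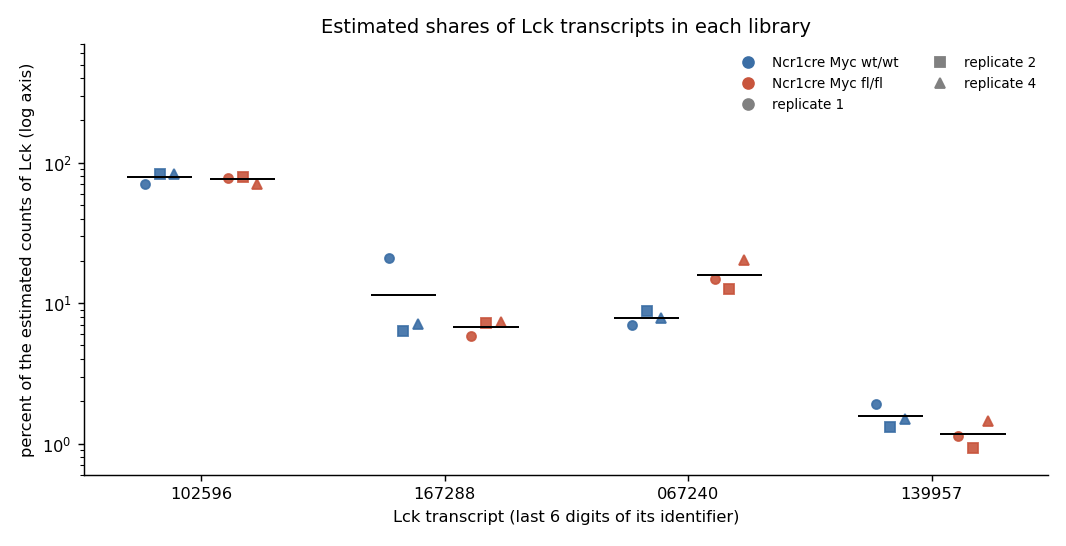
Estimated share of Lck counts (percent, log axis) of the 4 transcripts above 10 CPM in wt/wt, in each library, with Myc wt/wt in blue, Myc fl/fl in red, a symbol per replicate number and the mean of 3 libraries as a black line. The distal transcript, on the left, holds most counts, and the genotypes are apart for ENSMUST00000067240, the next to last, with 7.00% to 8.83% in wt/wt and 12.7% to 20.4% in fl/fl.

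Cd28, a costimulatory receptor of T cells that binds CD80 and CD86, was at 120.6, 110.6 and 174.4 CPM in wt/wt and at 131.2, 156.7 and 228.0 CPM in fl/fl. The fl/fl value was the higher in each pair of the same number, but the genotypes overlapped (log2 fold change 0.34, 0.03 to 0.65, adjusted p = 0.181 by edgeR). Cd5, an inhibitory surface receptor of T cells, was low, at 2.34, 3.17 and 3.92 CPM in wt/wt and 3.23, 3.88 and 5.41 CPM in fl/fl. It too was higher in fl/fl in each pair, with overlap between the groups (0.40, -0.23 to 1.03, adjusted p = 0.455 by edgeR). Cd8a, the alpha chain of the coreceptor of cytotoxic T cells, was at 0.909, 0.833 and 2.24 CPM in wt/wt and 0.630, 1.61 and 2.06 CPM in fl/fl. It rested on 7 estimated counts in wt/wt replicate 1, and with an interval of -0.80 to 1.14 around a log2 fold change of 0.17 a change within that interval was not detectable at this depth (adjusted p = 0.879 by edgeR).

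**Figure D5:**
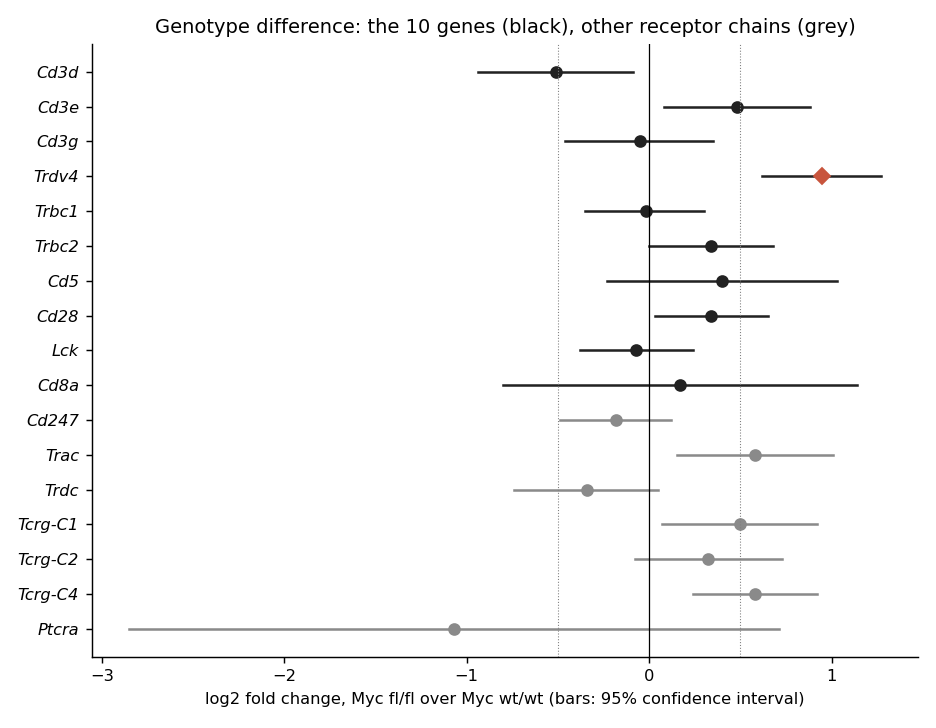
Log2 fold change of Myc fl/fl over Myc wt/wt with its 95% confidence interval for the 10 genes (black, with Trdv4, which passed the test, as a red diamond) and for 7 other T cell receptor chain genes (grey), with dotted lines at the limit of 0.5 in either direction. Trdv4 stands at 0.95, the interval of Cd3d lies below 0 and those of Cd3e, Trbc2 (from 0.00) and Cd28 above it, but none of these 4 passed the adjusted test.

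Per transcript length, Lck and Trbc1 were the most abundant of the 10 genes, at 1165 ± 71.5 and 1155 ± 106.7 TPM (mean ± SD over all 6 libraries). Lck was above Trbc1 in 4 of 6 libraries and their ranges overlapped, so this order was not beyond the spread. Trbc2 followed at 559.4 ± 144.9 TPM, below Trbc1 and above Trdv4 in every library. Trdv4 (213.1 ± 79.7 TPM), Cd3g (180.2 ± 54.1 TPM), Cd3d (114.1 ± 39.7 TPM) and Cd3e (106.1 ± 40.2 TPM) formed a middle group in which each range overlapped the next. The mean of Trdv4 covers 141.2 TPM in wt/wt and 284.9 TPM in fl/fl, and in wt/wt it was below Cd3g in replicates 2 and 4 and below Cd3d in replicate 4. Within the group, Cd3d was above Cd3e in all 3 wt/wt libraries and below it in all 3 fl/fl libraries. Cd28 was at 58.4 ± 18.6 TPM, with a range that overlapped that of Cd3e although it was below Cd3e in every library. Cd5 (2.82 ± 0.884 TPM) and Cd8a (0.630 ± 0.344 TPM) stood last in every library.

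Across the 6 libraries, the genes outside the 10 whose log2 CPM was most like that of Cd3e were Slamf1 (Pearson r = 0.988), Trgv2 (0.987), a gamma V segment, and Fosb (0.987). Within the 10 genes, Trbc2 (r = 0.98), Cd5 (0.91) and Cd28 (0.82) were closest to Cd3e, and Cd3d (0.33), Trbc1 (0.11) and Lck (-0.32) were least like it. These values describe 6 libraries of 2 genotypes that share the low value of wt/wt replicate 1, which is also the library of least depth.

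Of 71 further genes of the T cell receptor pathway, 69 could be tested, and 0 were called higher and 1 lower in fl/fl by edgeR, beside 1.28% and 0.872% of all tested genes. DESeq2 called 6 of them higher and 1 lower at the same limits, beside 643 higher and 537 lower among all 15474 tested genes. The median log2 fold change was 0.22, and 51 of the 69 (73.9%) had a positive sign, against 51.5% of all tested genes, whose median was 0.01. The called gene was Ptprc, which encodes CD45, the phosphatase that activates Lck by removing its inhibitory phosphate. The study also bred Ncr1cre Myc wt/wt mice with a congenic form of CD45. The labels do not say whether the wt/wt libraries came from such mice, and a part of this in the Ptprc counts was not tested. Ptprc was at 4733, 3849 and 4006 CPM in wt/wt and at 2079, 2403 and 1288 CPM in fl/fl, lower in every fl/fl library (log2 fold change -1.17, SE 0.19, adjusted p = 0.00708 by edgeR). In 13 alternatives the log2 fold change was between -1.40 and -0.95, but in 8 of them the adjusted p was above 0.01, including the fit without the replicate number (0.0117), without replicate 1 (0.0271) and without replicate 4 (0.0239, all by edgeR). Among the 7 other receptor chain genes, 4 had a positive and 3 a negative sign (median 0.32), and Cd247, the CD3 zeta chain that NK cells use, was at 191.4 to 198.3 CPM in wt/wt and 157.5 to 194.1 CPM in fl/fl (-0.18, adjusted p = 0.492 by edgeR). Of 30 signalling genes 19 had a positive sign (median 0.16), and Fyn, a kinase related to Lck, was at 740.1 to 853.2 CPM in wt/wt and 716.5 to 728.2 CPM in fl/fl (-0.13, adjusted p = 0.635 by edgeR). Of 11 coreceptor and costimulatory genes 8 had a positive sign (median 0.26), with the adhesion receptors Cd2 (0.02, adjusted p = 0.960) and Slamf6 (-0.65, adjusted p = 0.0492 by edgeR) most abundant. Of 21 T lineage transcription factor and recombination genes 20 had a positive sign (median 0.31) and 0 were called, and the most abundant were Ets1 (0.12, adjusted p = 0.695) and Tcf7 (0.11, adjusted p = 0.764 by edgeR). At an unadjusted p below 0.05, 21 of the 69 genes were higher and 4 lower, beside 12.4% and 10.2% of all tested genes.

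Markers of other cell types differed between the genotypes. Of 7 basophil and mast cell genes, all 7 were called higher in fl/fl, and their summed level was 12.6 to 16.0 CPM in wt/wt and 111.0 to 321.6 CPM in fl/fl, led by Prss34 and Mcpt8. Called higher were also 4 of 8 neutrophil and myeloid progenitor genes (Mpo, Elane, Ctsg and Prtn3, with a sum over the list of 85.4 to 140.0 against 537.5 to 896.5 CPM), 3 of 5 monocyte genes (Lyz2, Csf1r and Ly6c2), the erythroid gene Klf1, 1 of 4 platelet genes (Itga2b), 1 of 6 plasmacytoid dendritic cell genes (Siglech) and 1 of 5 ILC1 genes (Inpp4b). S1pr5, 1 of 5 mature NK cell genes, was called lower. Of 6 tested genes on the alpha beta T cell list 0 were called, and the sum over the list was 51.9 to 82.7 CPM in wt/wt and 81.0 to 92.3 CPM in fl/fl. On that list Cd4 and Cd8b1 were below 1 CPM in every library, whereas Trac was at 18.9 to 41.6 CPM, Icos at 22.5 to 32.0 CPM, Ccr7 at 5.59 to 10.5 CPM, Cd6 at 2.76 to 13.4 CPM and Cd40lg at 0.284 to 1.71 CPM. Of 6 gamma delta T cell genes 0 were called, with a sum of 219.0 to 284.9 CPM in wt/wt and 193.7 to 253.6 CPM in fl/fl, most of it from Trdc and Tcrg-C2. Trac, Trdc and Tcrg-C2 are also among the receptor chains above. Of 6 tested B cell genes 0 were called, with a sum of 10.2 to 13.8 CPM in wt/wt and 14.3 to 20.7 CPM in fl/fl. Cd79b and Cd22 led this list at 3.25 to 9.53 CPM and 2.22 to 6.89 CPM, Cd79b and Cd79a (at most 2.48 CPM) were higher in every fl/fl library without being called, and Pax5, Vpreb1 and Igll1 were at 0 in some libraries of both genotypes but at 0.184, 0.419 and 0.720 CPM in fl/fl replicate 4. Of the ILC2 (3 tested), conventional dendritic cell (5) and NK cell (10) genes 0 were called. The most abundant genes of the lists not yet named were Ccr2 (monocyte), Hbb-bs and Hba-a1 (erythroid), Pf4 (platelet), Tcf4 and Cox6a2 (plasmacytoid dendritic cell), Tnfsf10 (ILC1), Zeb2 and Itgam (mature NK cell), Il1rl1 and Il17rb (ILC2), Flt3 and Zbtb46 (conventional dendritic cell) and Il2rb and Klrk1 (NK cell). The part of these other cell types in the levels of Trdv4, Cd3d and Cd3e was not tested.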

How the data were processed

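RNA-seq of 6 libraries of sorted CD27SP NK cells was used (SMART-Seq v4, poly(A) selection, single-end reads of 100 bases). The tables deposited by the authors hold, for each of 100583 transcripts, an estimated count, which is not normalised, and a TPM value, which is relative to transcript length and depth. The submitters' processing notes name Salmon and GRCh38, a human build, whereas the transcripts are of mouse and the columns are those of kallisto, so the reference the authors used is not certain. The strand setting is not given in the sources used here.

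For each gene symbol of GENCODE M21 (GRCm38), the counts of its transcripts were added up (100239 transcripts matched, and the unmatched ones held 0.129% to 0.169% of the counts per library) and rounded. Genes were filtered by filterByExpr on genotype (15474 kept), normalised by TMM and tested with edgeR 4.0.16 (quasi-likelihood test, replicate number as block, as the study calls its analyses paired) in R 4.3.3, with Benjamini-Hochberg adjustment over all tested genes. The correlation of deviations between libraries of the same number was -0.012, -0.020 and 0.050, so the numbers were not shown to pair the samples. Within a genotype, libraries differed by more than counting noise (chi-square per degree of freedom 39.4 to 100.1). DESeq2 1.42.0 and limma 3.58.1 (limma-trend) served as alternatives, with others of filter, scaling and library. TPM was used to compare levels between genes. The procedure was tested on simulated data. Totals of 8101219 to 64962491 counts set the precision, and intervals cover the model's error only.

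Named in the text are the 10 genes, Myc, the called genes and the 2 most abundant of each list, the 3 genes most like Cd3e, and the 3 most abundant further receptor segments. Other segments and other marker genes were named after their values were seen. The 10 genes and the lists were chosen with earlier results of these data known, and lists are given by counts and medians, without a test. Promoter sequences are of RefSeq (6 of 10 genes had one), and transcripts of GENCODE M21.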

Additional observations from a re-analysis of the deposited data

How the results depend on the processing

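Over 13 alternatives (12 for Cd8a, which at least 10 counts in every library removed), the log2 fold changes of Trdv4, Cd3d, Cd3e, Trbc2, Cd28 and Cd5 kept their sign, but their size moved, from 0.07 to 0.73 for Cd3e, 0.09 to 0.50 for Trbc2, 0.22 to 0.47 for Cd5, 0.26 to 0.44 for Cd28 and -0.75 to -0.26 for Cd3d. Leaving out wt/wt replicate 1 alone also dropped the block. It gave the lowest values of Cd3e, Trbc2, Cd5 and Cd28, and with no block and all libraries Cd3e was at 0.36 and Trbc2 at 0.30. The sign turned for genes near 0: Trbc1 was at 0.11 without replicate 1, 0.01 without wt/wt replicate 1 and 0.00 with at least 10 counts in every library, Lck was at 0.03 without replicate 1, Cd3g at 0.20 without replicate 4, and Cd8a at -0.28 without replicate 2 and -0.12 without wt/wt replicate 1. With replicate numbers left out in turn, Trbc1 and Lck reached -0.14 at the lowest, Cd3g -0.25, and Cd8a 0.39 at the highest. Of the 10 genes, the number called higher ranged from 0 to 1 when replicates were left out, and was 0 with scaling by library size only (Trdv4 adjusted p = 0.0111) and with offsets from effective lengths (0.0208), where edgeR was used in each. Over all alternatives the adjusted p of Trdv4 ranged from 5.28e-07 (DESeq2) to 0.0231.

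The block of replicate numbers was part of the main fit. Without the block, Trdv4 had an adjusted p of 0.00432 by edgeR and a log2 fold change of 0.94, 203 genes were higher and 184 lower in fl/fl, and 0 genes of the pathway lists were lower.

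Of all genes, 198 were higher and 135 lower in the main fit. These counts became 49 to 162 higher and 10 to 114 lower without 1 replicate number (113 and 130 without wt/wt replicate 1 in a fit with no block, against 203 and 184 with no block and all libraries), 643 and 537 with DESeq2, 144 and 78 with limma-trend and with the largest adjusted p of 3 tools, 49 and 25 with library size only, 24 and 8 with effective length offsets, 524 and 378 with no filter, and 689 and 523 at an adjusted p below 0.05 with no fold limit. For the pathway lists, the genes higher were 0 to 1 when libraries were left out, 6 with DESeq2, 3 with no filter and 7 at 0.05, and those lower were 0 to 1 when libraries were left out, 0 with limma-trend, the largest p, library size and effective lengths, and 2 at 0.05. The causes were not tested.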
